A study of Homo sapiens with 4 samples.

Results

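The genes of the splicing machinery were followed in 10x Genomics transcriptomes of human naive embryonic stem cells (nES cells, line H9) that had been formed into aggregates and blastoids. Their symbols were chosen by name: SRSF followed by a number (SR proteins), every HNRNP symbol (hnRNPs), SF3A and SF3B (the protein core of the U2 particle), U2AF1 and U2AF2, the SNRP genes of the Sm ring and of the U1 and U2 particles, and the numbered PRPF genes. This gave 73 of the 36601 genes in the matrices, namely 12 SR protein, 26 hnRNP, 9 SF3, 2 U2AF, 11 SNRP and 13 PRPF genes. The HNRNP symbols include HNRNPCL1, HNRNPCL2, HNRNPCL3 and HNRNPCL4, which together held 1 UMI over all cells and were never tested.

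The study cultured H9 nES cells in AggreWell plates and gave them a cell-permeable form of α-ketoglutarate, its dimethyl ester (dm-αKG), at 4 mM or not at all (0 mM) for the initial 40 h. Cells first aggregated in N2B27 with BSA and Y27632, PALLY medium was then added and stayed past the 40 h time point, and LY medium replaced it until 120 h. Aggregates were taken at 40 h, while exposed, and blastoids at 120 h, after the compound had been withdrawn. H9 is an established human line, and all cultures therefore share 1 genotype. Blastoids with a single cavity were picked by mouth pipette, dissociated, labelled with TotalSeq hashtag antibodies, sorted and captured. The study notes that TE cells were lost more than others during dissociation, and shares of the classes are limited by that. Run 1 held 4 hashtagged cultures (aggregates and blastoids, each at 0 and 4 mM) and run 2 held 2 (blastoids at 0 and 4 mM). An arm is 1 hashtagged culture in 1 run, and 6 arms were measured in all. Blastoids therefore have 2 arms per dose, from independent experiments, and aggregates have 1.

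Splicing removes introns from nascent transcripts. The U1 particle reads the start of an intron, U2AF reads its end, and U2AF then helps to place the U2 particle, with its SF3A and SF3B proteins, on the branch point. The U4, U5 and U6 particles join next, and PRPF8 holds the catalytic RNA in place. Sm proteins (SNRPB, SNRPD1 to SNRPG) form the ring on which the U1, U2, U4 and U5 particles are built. SR proteins bind exons and mostly favour their inclusion, whereas many hnRNPs coat transcripts and repress sites. Pluripotent stem cells are known for high expression of many of these factors.

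Blastoid cells were called TE-like when KRT8, KRT18, GATA3 and CLDN4 together held more UMIs than POU5F1, DPPA5, DPPA4, L1TD1 and TDGF1, and Epi-like otherwise, which gave 418 TE-like and 9974 Epi-like cells beside 2255 aggregate cells. Markers outside that rule were also apart. Over 12 further trophectoderm genes (GATA2, KRT19, CDX2 and others) the summed level was 1559 to 2565 CPM (UMIs per 1e6 UMIs of the arm and class) in the TE-like arms and 123 to 134 CPM in the Epi-like arms, and over 10 further epiblast genes (NANOG, SOX2, KLF17 and others) it was 103 to 264 CPM and 1315 to 1435 CPM. The TE-like sums rest on 18 cells (run 1, 0 mM), 49 cells (run 1, 4 mM), 181 cells (run 2, 0 mM) and 170 cells (run 2, 4 mM). Epi-like arms held 408 to 4804 cells and 11818706 to 81804868 UMIs, and the aggregate arms 1201 and 1054 cells. Hashtag singlets that passed the filters made up 71.7% of aggregate singlets at 0 mM and 55.7% at 4 mM, but 44.8% and 73.1% of blastoid singlets in run 1 and 81.0% and 89.0% in run 2, and the part of that difference in the results by dose was not tested. The 2 runs shared 28 cell barcodes.

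Together the 73 genes took 1.45 to 1.68% of all UMIs in every arm. The share was spread over many genes. HNRNPA1, which regulates exon choice and export, held on average 6.15% of the summed counts, HNRNPA2B1 5.78% and HNRNPA3 5.05%, and it took 13 genes to pass 50% (51.5%). In a 3′ counting assay each transcript gives about the same number of tags whatever its length, and levels of different genes are given here as UMIs and not per length. HNRNPA1 may share reads with its near-identical relatives HNRNPA1L2 and HNRNPA1P48. U2AF1, the subunit that reads the last bases of an intron, lay between 0 counts (in the TE-like arm of 18 cells, where 0 counts allow up to 6.57 CPM) and 7.71 CPM, and U2AF1L5, its near-identical copy in the reference, between 0 and 0.619 CPM. Reads that fit both copies equally may not have been counted, so the level of U2AF1 is uncertain.

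The summed share fell with dose in aggregates and was higher with dose in blastoid cells. In aggregates it was 1.66% at 0 mM and 1.45% at 4 mM, which is 16583 CPM (95% Poisson interval 16541 to 16625) and 14534.5 CPM (14492 to 14577), a drop by 12.4%. In Epi-like cells it was 1.54% and 1.64% in run 1 and 1.56% and 1.61% in run 2, a rise by 6.28% and 3.36%. In TE-like cells it was 1.49% and 1.67% in run 1 and 1.59% and 1.68% in run 2, a rise by 12.3% and 5.57%. Both 4 mM arms thus lay above both 0 mM arms in each blastoid class, while the aggregates moved the opposite way. Not every subgroup took part in the rise. In Epi-like cells (run 1, then run 2) the SF3 sum changed by -8.17% and -4.53% and the SNRP sum by -3.36% and 1.42%. The SR protein, hnRNP, U2AF and PRPF sums rose there in both runs. In TE-like cells the SNRP sum changed by -1.34% and 7.75%, the SF3 sum by 12.4% and -0.78% and the U2AF sum by 78.4% and -4.13%. The U2AF sum of run 1 rests on 13 UMIs at 0 mM (28.5 CPM, Poisson interval 15.2 to 48.7). At 4 mM it held 82 UMIs (50.8 CPM, 40.4 to 63.0), and the intervals overlap. The intervals hold counting error only, and dose could not be tested within the aggregates, with 1 arm per dose. The median aggregate cell had a share of 1.63% at 0 mM and 1.45% at 4 mM, and the upper quartile of cells at 4 mM (1.60%) lay below the median at 0 mM.

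In the TE-like arms other readouts differed by dose as well. The mitochondrial share was 5.90% and 3.90% in run 1 and 3.93% and 4.22% in run 2 (0 mM before 4 mM). The 12 trophectoderm markers summed to 1559 and 2565 CPM in run 1 and to 1691 and 2182 CPM in run 2. The 4 trophectoderm genes of the class rule moved the other way, at 14369 and 11452 CPM in run 1 and 11545 and 11105 CPM in run 2. MALAT1, a nuclear RNA, was at 18230.0 and 14864 CPM in run 1 and at 15721 and 13849.5 CPM in run 2, and NEAT1, the RNA scaffold of paraspeckles, at 1699 and 754 CPM and at 1008 and 832 CPM. The part of these readouts in the TE-like shares was not tested.

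**Figure D1:**
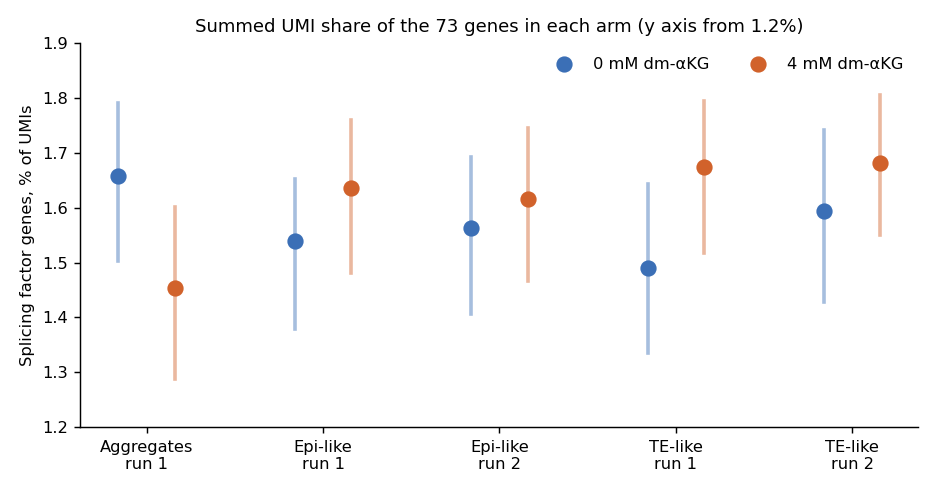
Share of all UMIs held by the 73 splicing factor genes (y axis, percent, starting at 1.2) in each arm, with 0 mM in blue and 4 mM in orange. Points are arm sums and bars span the middle 50% of single cells; the aggregate share is lower at 4 mM (1.45 against 1.66%), and the 4 blastoid pairs are higher.

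In the 40 h aggregates, 60 members had at least 20 CPM in both arms. Of these, 46 were lower at 4 mM with Poisson intervals that do not overlap, where 31.3% of all 4886 genes at that level were, and 0 were higher, where 19.4% of all genes were. A gene with more counts passes at a smaller ratio, and members and all genes were not matched for level beyond the 20 CPM limit. The median log2 ratio of 4 over 0 mM was -0.18 for the members and -0.029 for all genes. These are differences between 2 cultures and carry no replicate check.

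The decrease ran through the subgroups. It covered 10 of 11 SNRP genes, 9 of 10 SR protein genes, 15 of 20 hnRNPs, 6 of 9 SF3 and 6 of 9 PRPF genes at that level. SNRPG, a subunit of the Sm ring, went from 569 CPM (561 to 577) to 420 CPM (413 to 428), a log2 ratio of -0.44. HNRNPH2, an hnRNP that binds runs of G, went from 35.8 CPM (33.9 to 37.8) to 26.6 CPM (24.8 to 28.4), a log2 ratio of -0.42. SRSF7, an SR protein that also takes part in export of messenger RNA, went from 446 CPM (439 to 453) to 333 CPM (327 to 340), a log2 ratio of -0.42. For all 3 genes the level at 4 mM stood well under the counting interval at 0 mM. HNRNPU, which also organises chromatin, went from 587 CPM (579 to 595) to 462 CPM (454 to 469). PRPF19, the ubiquitin ligase at the centre of the PRP19 complex, went from 42.2 CPM (40.1 to 44.4) to 33.4 CPM (31.4 to 35.5). The 5 genes named here are those with the lowest ratios, and no member at 20 CPM rose past its interval; the highest ratio was 0.069, for PRPF38B. All 18 core factors listed in the methods had ratios below 0, from -0.42 (SRSF7) to -0.095 (SRSF1).

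Other readouts moved in the same 2 arms. The mitochondrial share of UMIs was 4.42% at 0 mM and 5.27% at 4 mM, and ribosomal protein genes held 31.9% and 33.4%. MALAT1, often read as a sign of RNA quality, was at 5652 and 4156 CPM, cycling genes (9 genes) summed to 860 and 827 CPM and immediate early genes (7 genes) to 166 and 204 CPM. The 12 trophectoderm markers summed to 179 CPM at 0 mM and 151 CPM at 4 mM, with VGLL1 at 0 counts in the latter. The 4 trophectoderm genes of the class rule moved the other way, at 284 and 375 CPM. With mitochondrial and ribosomal protein genes left out of the total, the log2 ratio of the summed members was -0.14 in place of -0.19, so the sum was still lower at 4 mM. The part of these readouts in the decrease was not tested otherwise.

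**Figure D2:**
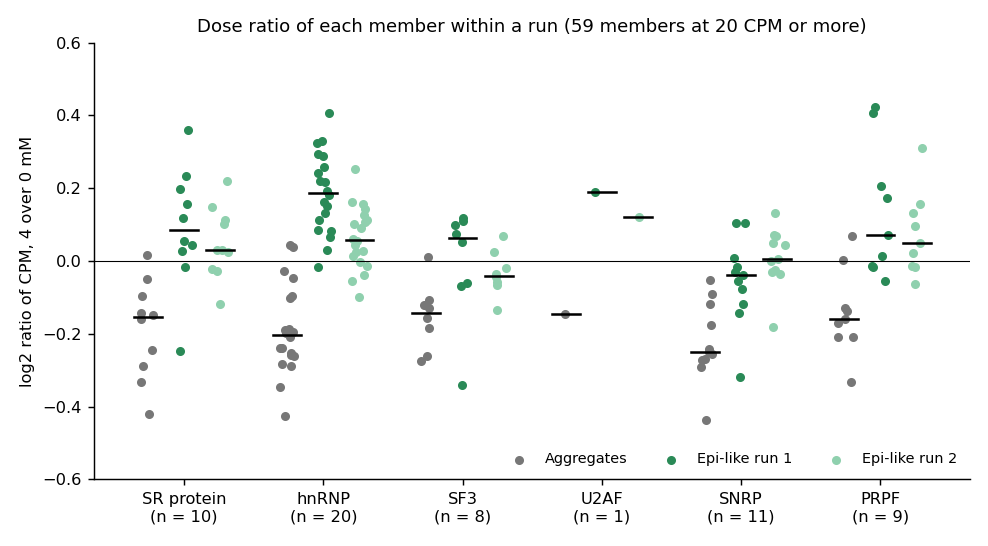
Log2 ratio of CPM at 4 over 0 mM (y axis) for the 59 members with at least 20 CPM in the aggregate and Epi-like arms, by subgroup, in aggregates (grey) and in Epi-like cells of run 1 (dark green) and run 2 (light green). Each point is a gene and each black line a median; the hnRNP median was -0.20 in aggregates, 0.19 in Epi-like run 1 and 0.058 in run 2, and the SNRP medians were -0.25, -0.039 and 0.0054.

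In Epi-like cells at 120 h, which had been exposed only during the initial 40 h, 6 of 69 members tested were higher at 4 mM and 4 were lower (edgeR quasi-likelihood test with the run in the model, adjusted p below 0.05). Over all 17014 genes tested, 5.2% were higher and 3.49% lower. Among the members the shares were 8.70% higher and 5.80% lower, and their median log2 change was 0.036 against -0.0090 for all genes. By subgroup, 3 of 22 hnRNP, 2 of 13 PRPF and 1 of 12 SR protein genes rose, and 0 of 11 SNRP and 0 of 9 SF3 genes. With 5.2% of all genes higher, counts this small do not set the subgroups apart.

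PRPF38B, a relative of the spliceosome factor PRPF38A, was at 109 and 145 CPM in run 1 and at 124 and 154 CPM in run 2, with 0 mM given before 4 mM in each run. Both 4 mM arms lay above both 0 mM arms, and the log2 change was 0.35 ± 0.06 (SE, adjusted p = 0.000217, edgeR). HNRNPM, a regulator of exon skipping in epithelial and mesenchymal states, was at 262 and 347 CPM in run 1 and at 283 and 337 CPM in run 2. The arms did not overlap, and the change was 0.32 ± 0.06 (adjusted p = 0.000764, edgeR). SRSF3, the smallest SR protein and a factor required for pluripotency in mouse cells, was at 447 and 574 CPM in run 1 and at 474 and 553 CPM in run 2. Here, too, the doses were apart, with a change of 0.28 ± 0.06 (adjusted p = 0.00314, edgeR). PRPF4B, a kinase that phosphorylates spliceosome proteins, was at 66.9 and 89.9 CPM in run 1 and at 89.1 and 99.3 CPM in run 2. Its 4 mM arm of run 1 lay only just above the 0 mM arm of run 2, and the change was 0.27 ± 0.07 (adjusted p = 0.00631, edgeR). HNRNPU was at 460 and 576 CPM in run 1 and at 510 and 551 CPM in run 2 and changed by 0.21 (adjusted p = 0.0350, edgeR). HNRNPH1, which binds G-rich sequences, was at 167 and 209 CPM in run 1 and at 192 and 206 CPM in run 2 and changed by 0.21 (adjusted p = 0.0374, edgeR). In both genes the smaller step was that of run 2.

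The 4 genes that fell differ widely in level. HNRNPLL, a regulator of CD45 splicing in lymphocytes, was at 14.0 and 11.3 CPM in run 1 and at 13.7 and 11.3 CPM in run 2, a log2 change of -0.28 ± 0.09 (adjusted p = 0.0488, edgeR). SRSF8, an SR protein related to SRSF2, was at 18.4 and 14.4 CPM in run 1 and at 17.8 and 15.1 CPM in run 2, a change of -0.27 ± 0.09 (adjusted p = 0.0363, edgeR). In neither gene did the doses overlap, although HNRNPLL passed the threshold only narrowly. SNRPA, the U1 protein that binds a loop of the U1 RNA, was at 89.7 and 71.8 CPM in run 1 and at 79.7 and 70.2 CPM in run 2 (-0.24 ± 0.07, adjusted p = 0.0126, edgeR). SF3B6, the subunit nearest the branch point adenosine, was at 468 and 369 CPM in run 1 and at 424 and 386 CPM in run 2 (-0.24 ± 0.07, adjusted p = 0.0183, edgeR). Both genes were lower at 4 mM in each run, and their arms did not overlap. Of the core factors 16 did not pass, with changes between -0.056 (U2AF1) and 0.20 (HNRNPA1, adjusted p = 0.0567, edgeR).

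These calls rest on 1 residual degree of freedom and on the run term: with the run left out of the model 0 members passed in either direction by edgeR, and DESeq2 with the run called 3 higher (PRPF38B, HNRNPM and SRSF3) and 0 lower. With total counts as the scale 12 were higher and 4 lower. In the same arms MALAT1 was lower at 4 mM (5789 and 4668 CPM in run 1, 6281 and 4820 CPM in run 2), cycling genes summed to 777 and 807 CPM in run 1 and to 859 and 874 CPM in run 2, and the 4 trophectoderm genes of the class rule to 232 and 328 CPM and to 228 and 295 CPM. The 12 trophectoderm markers outside the rule summed to 123 and 131 CPM in run 1 and to 133 and 134 CPM in run 2. The part of these readouts in the result was not tested.

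**Figure D3:**
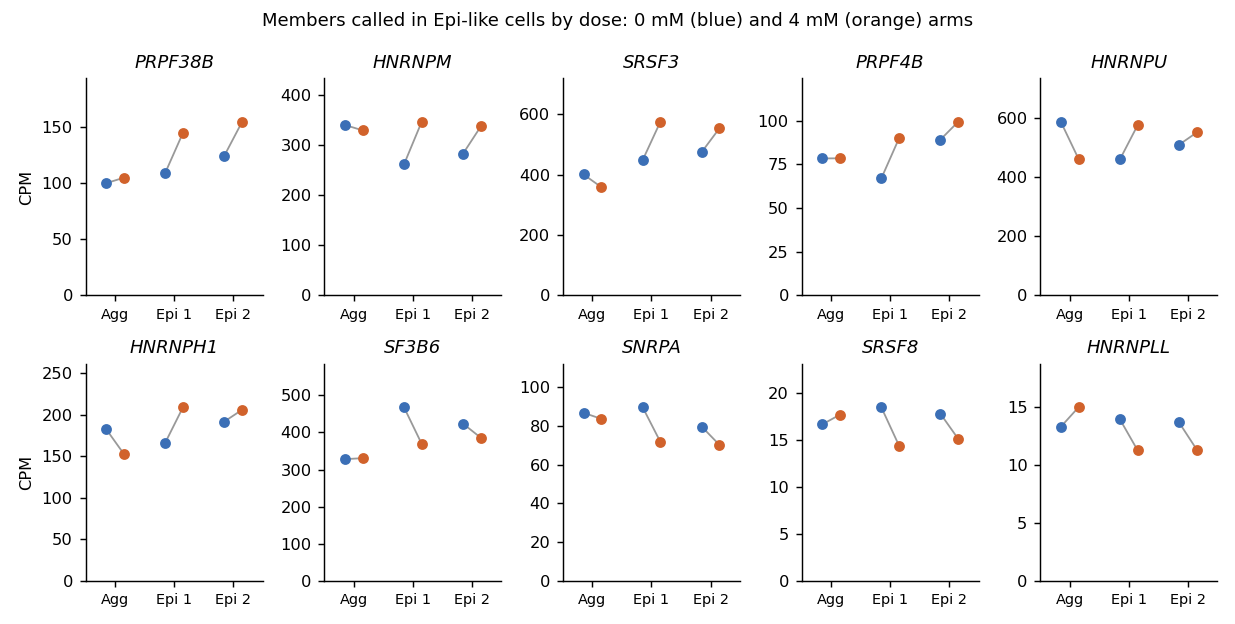
CPM (y axes, from 0) of the 10 members called by dose in Epi-like cells, in aggregates (Agg) and in Epi-like cells of run 1 (Epi 1) and run 2 (Epi 2), at 0 mM (blue) and 4 mM (orange), each point an arm. The genes that rose, such as PRPF38B (109 to 145 and 124 to 154 CPM), did so in both runs, while HNRNPU was lower at 4 mM in aggregates (587 to 462 CPM).

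Some of these 10 genes had ratios of the other sign in aggregates. HNRNPU had a log2 ratio of -0.35 there, HNRNPH1 of -0.26 and SRSF3 of -0.16, each with intervals that do not overlap, and all 3 rose in Epi-like cells. PRPF38B had a ratio of 0.069 and PRPF4B of 0.0017 in aggregates.

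The dose change in Epi-like cells was then set against that in aggregates by a stage-by-dose term over the 6 sums of both runs, with the run in the model, a test added after the data had been seen. The change was higher in Epi-like cells for 22 of 69 members and lower for 0 (edgeR, adjusted p below 0.05; DESeq2 also gave 0 lower, and 3 lower genes, HNRNPLL, SRSF8 and SF3B6, had an unadjusted p below 0.05), where 5.74% of all 17485 genes were higher and 4.95% lower. The median difference was 0.25 for the members and -0.00043 for all genes. The 22 comprised 10 of 22 hnRNPs, 5 of 12 SR protein, 4 of 11 SNRP and 3 of 13 PRPF genes, and 0 of 9 SF3 genes. HNRNPU had a difference of 0.56 ± 0.12 on the log2 scale (adjusted p = 0.000212, edgeR). SRSF6 (0.49 ± 0.12), HNRNPH2 (0.49 ± 0.13) and HNRNPA1P48, which may share reads with HNRNPA1 (0.48 ± 0.12), followed. HNRNPH1 (0.47), SRSF3 (0.45) and HNRNPM (0.38) also passed. PRPF38B (0.29, adjusted p = 0.0852, edgeR) and PRPF4B (0.28, adjusted p = 0.114, edgeR) did not pass. The spread in this test, on 1 residual degree of freedom, comes from the Epi-like arms alone, and the single aggregate arms are assumed to vary like them. DESeq2 called 4 members (HNRNPU, HNRNPDL, SRSF3 and HNRNPD), and with the run left out of the model edgeR called 0.

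The upstream sequences of the 3 genes with the largest rise, and of SRSF6, the member with the largest difference between stages, are shown so that the start regions of the members with the clearest changes can be read side by side. Each covers 250 bases before to 50 after the RefSeq start (GRCh38.p14, plus strand), and capitals mark the matches to the CCAAT box (CCAAT), the GC box (GGGCGG), the TATA box (TATAAA) and an ETS core (CCGGAAG) on either strand. PRPF38B lies at chr1:108692060-108692359, HNRNPM at chr19:8444725-8445024, SRSF3 at chr6:36594112-36594411 and SRSF6 at chr20:43457646-43457945.
PRPF38B: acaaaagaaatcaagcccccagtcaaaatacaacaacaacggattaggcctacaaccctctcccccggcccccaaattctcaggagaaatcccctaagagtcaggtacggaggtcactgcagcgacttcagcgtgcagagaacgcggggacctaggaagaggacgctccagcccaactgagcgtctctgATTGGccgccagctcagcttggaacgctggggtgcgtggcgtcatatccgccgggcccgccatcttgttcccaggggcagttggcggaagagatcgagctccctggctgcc
HNRNPM: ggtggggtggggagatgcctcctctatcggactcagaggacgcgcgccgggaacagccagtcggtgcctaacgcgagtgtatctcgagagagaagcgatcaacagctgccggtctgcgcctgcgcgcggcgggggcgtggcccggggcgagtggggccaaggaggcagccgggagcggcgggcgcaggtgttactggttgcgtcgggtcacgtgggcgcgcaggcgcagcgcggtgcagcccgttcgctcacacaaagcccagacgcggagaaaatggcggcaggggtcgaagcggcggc
SRSF3: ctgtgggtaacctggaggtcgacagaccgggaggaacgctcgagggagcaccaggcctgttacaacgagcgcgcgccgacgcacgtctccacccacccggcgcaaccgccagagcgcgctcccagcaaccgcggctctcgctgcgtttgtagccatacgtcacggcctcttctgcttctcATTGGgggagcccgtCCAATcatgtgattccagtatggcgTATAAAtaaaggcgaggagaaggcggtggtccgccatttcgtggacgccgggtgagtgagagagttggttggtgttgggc
SRSF6: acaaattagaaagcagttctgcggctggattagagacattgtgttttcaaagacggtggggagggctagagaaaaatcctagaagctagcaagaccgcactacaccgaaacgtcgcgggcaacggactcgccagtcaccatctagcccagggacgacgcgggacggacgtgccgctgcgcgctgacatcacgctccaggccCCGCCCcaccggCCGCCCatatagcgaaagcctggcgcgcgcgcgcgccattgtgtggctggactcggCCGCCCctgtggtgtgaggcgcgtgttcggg

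The PRPF38B window held a CCAAT box in reverse, SRSF3 held 2 CCAAT boxes and a TATA box, SRSF6 held 3 reversed GC boxes and HNRNPM held none of these letters. Of the members, 63 had a RefSeq window. The CCAAT box was found for 32 of the 63 (50.8%) and for 39.7% of all 27305 genes with a window. The GC box was found for 61.9% of members and 48.3% of all genes, the ETS core for 33.3% and 12.2%, and the TATA box for 11.1% and 14.0%. A match of letters is a description and not a binding site.

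In TE-like cells 0 of 67 members tested passed by dose (edgeR, 2 with an unadjusted p below 0.05), and DESeq2 also called 0. Over 9104 genes, 0.648% were higher and 0.791% lower. The median log2 change of the members was 0.098 with a median SE of 0.16, against -0.0047 for all genes. The lowest unadjusted p was that of HNRNPA2B1, an abundant hnRNP that regulates exon choice, at 771 and 1039 CPM in run 1 and at 808 and 957 CPM in run 2, a log2 change of 0.31 ± 0.12 (adjusted p = 0.345, edgeR). SNRPE, of the Sm ring, followed at 574 and 738 CPM in run 1 and at 564 and 698 CPM in run 2, a change of 0.31 ± 0.12 (adjusted p = 0.368, edgeR). In both genes the doses did not overlap. The median SE in Epi-like cells was 0.064, and the lack of calls does not show that the members kept their level in TE-like cells. The core factors lay between -0.19 (U2AF1) and 0.34 (PRPF19).

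The dose change in TE-like cells was set against that in Epi-like cells by an interaction term. None of 69 members passed (0 called by edgeR, 2 with an unadjusted p below 0.05, and 0 by DESeq2), where 0.38% of all genes were higher and 0.395% lower. The lowest p was that of SRSF8, with a difference of 0.74 ± 0.30 on the log2 scale (adjusted p = 0.437, edgeR). The median SE of these differences was 0.18, and equal responses were not shown.

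TE-like cells, the outer layer of the blastoid, were also compared with Epi-like cells of the same arms. With edgeR's trimmed mean (TMM) scaling 35 of 69 members were higher and 4 lower in TE-like cells, where 23.1% of all 12352 genes were higher and 25.9% lower. The scaling matters here. With total counts, 13 members were higher and 13 lower, where 14.1% of all genes were higher and 38.3% lower, because the scale shifted the median of all genes from -0.040 to -0.27. Against that median the members stood 0.28 higher with either scaling. Among genes at 20 CPM or more in both classes the gap was smaller, at 0.076 and 0.062 in run 1 (0 and 4 mM) and 0.13 and 0.091 in run 2. The 13 genes higher with both scalings were HNRNPDL, HNRNPH2, HNRNPH3, HNRNPM, HNRNPR, PRPF19, PRPF4B, SF3B1, SF3B5, SNRPE, SNRPG, SRSF2 and SRSF8, and the 4 lower with both were HNRNPUL1, PRPF8, SF3B3 and SRSF10.

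HNRNPH2 was at 23.9 to 27.8 CPM in the 4 Epi-like arms and at 35.0 to 45.8 CPM in the 4 TE-like arms. The classes did not overlap, and the log2 change was 0.89 ± 0.12 (adjusted p = 7.86e-06, edgeR with TMM) and 0.66 with total counts. SRSF8 was at 14.4 to 18.4 CPM in Epi-like and 17.8 to 30.3 CPM in TE-like arms, which overlap, with a change of 0.76 ± 0.17 (0.53 with total counts). HNRNPR, an hnRNP that binds the SMN protein, was at 179 to 219 CPM in Epi-like and 250 to 316 CPM in TE-like arms, with a change of 0.73 ± 0.08 (0.51 with total counts). Its TE-like arms were all above its Epi-like arms. HNRNPH3, a relative of HNRNPH1 without one of its RNA-binding domains, was at 160 to 178 CPM in Epi-like and 224 to 239 CPM in TE-like arms, with a change of 0.69 ± 0.08 (0.47 with total counts), and did not overlap either.

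Of the 7 Sm ring genes 6 were higher with TMM and 2, SNRPG and SNRPE, with total counts, and 0 were lower with either. SNRPG was at 389 to 470 CPM in Epi-like and 506 to 661 CPM in TE-like arms, and SNRPE at 489 to 497 CPM and 564 to 738 CPM. Both were apart between classes, with changes of 0.64 and 0.60 (0.43 and 0.38 with total counts). Of all 11 SNRP genes, which include the U1 and U2 proteins, 9 were higher with TMM. The U2 core was mixed. SF3B1, which grips the branch point and is often mutated in leukaemia, and SF3B5 were higher with both scalings (0.46 and 0.61 with TMM), and SF3B3, a scaffold of the same complex, was lower.

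PRPF8, the largest protein of the catalytic core, was at 92.9 to 108 CPM in Epi-like and 61.3 to 76.8 CPM in TE-like arms, with a change of -0.28 ± 0.09 (adjusted p = 0.0209, edgeR with TMM) and -0.51 with total counts. HNRNPUL1, a relative of HNRNPU, was at 69.0 to 76.5 CPM and 32.9 to 60.0 CPM, with a change of -0.38 ± 0.12 (-0.61 with total counts). SF3B3 was at 50.3 to 55.3 CPM and 33.2 to 40.9 CPM, with a change of -0.30 ± 0.11 (-0.53 with total counts). In these 3 genes every TE-like arm lay below every Epi-like arm. The same held for SRSF10, which represses splicing when dephosphorylated in heat shock, at 243 to 250 CPM and 171 to 187 CPM, with a change of -0.26 ± 0.08 (-0.48 with total counts).

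A further 22 members passed with TMM alone, all of them higher, by 0.18 to 0.42. They include U2AF2, the subunit that binds the tract before the intron end, SNRPA, SRSF5, PRPF3, SNRPD1, PRPF6, SNRPA1, SRSF11, SRSF3, SNRPB, SNRPB2 and HNRNPC. In HNRNPD (-0.041), HNRNPAB (-0.017) and SNRPD3 (-0.0071) the change was below 0 with total counts. With total counts alone 9 members passed, all of them lower (PRPF38B, SRSF7, SRSF9, SRSF12, HNRNPA0, HNRNPA3, HNRNPH1, HNRNPK and SF3B2). SRSF7 and SRSF9 lay at 0.020 and 0.016 with TMM, on the other side of 0. Among the 18 core factors 11 were higher and 1 lower with TMM, and 6 did not pass, between -0.19 (HNRNPK) and 0.33 (U2AF1). MALAT1 was at 4668 to 6281 CPM in Epi-like and 13849.5 to 18230.0 CPM in TE-like arms, mitochondrial genes held 4.23 to 4.61% and 3.90 to 5.90% of UMIs, cycling genes summed to 777 to 874 CPM and 855 to 990 CPM, and 8 primitive endoderm markers to 32.7 to 42.6 CPM and 112 to 219 CPM. Their part in the differences was not tested.

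**Figure D4:**
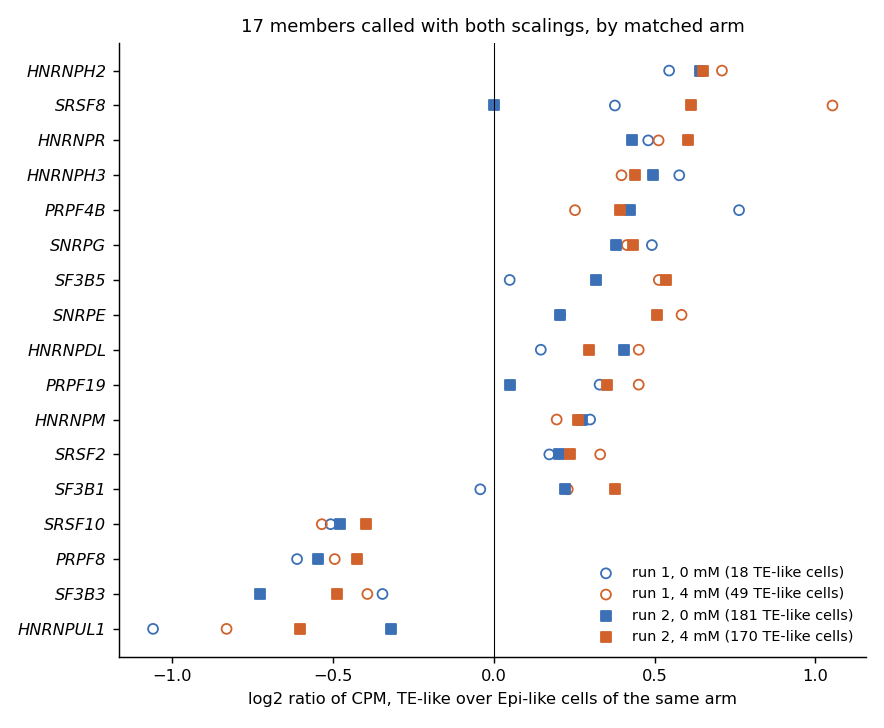
Log2 ratio of CPM in TE-like over Epi-like cells of the same arm (x axis) for the 17 members called with both scalings, with run 1 as open circles, run 2 as filled squares, 0 mM in blue and 4 mM in orange. HNRNPH2, HNRNPR and SNRPG lie to the right of 0 in all 4 arms and PRPF8 and SRSF10 to the left; SRSF8 and SF3B1 lie at or near 0 in 1 arm each.

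Epi-like cells at 120 h were compared with aggregates at 40 h within run 1, with the dose in the model. Each stage had 1 arm per dose and no replicate. The spread in this fit is therefore how far the stage difference varied between 0 and 4 mM. The SE and p-values below measure that variation. Here 1 of 69 members was higher and 1 lower, where 4.81% of all 16044 genes were higher and 2.69% lower. SRSF6, an SR protein known for regulating exons of tau, was at 34.2 and 27.1 CPM in aggregates (0 and 4 mM) and at 62.6 and 72.0 CPM in Epi-like cells of run 1. Both Epi-like arms lay far above both aggregate arms, with a log2 change of 1.19 ± 0.15 (adjusted p = 0.00103, edgeR). In run 2, which the test did not use, SRSF6 was at 71.5 and 76.7 CPM in Epi-like cells, and in TE-like cells of both runs it was at 70.4 to 75.6 CPM. All 8 blastoid sums thus lay above the aggregates. SRSF12, a relative that counteracts other SR proteins, was at 8.25 and 8.58 CPM in aggregates and at 4.91 and 3.43 CPM in Epi-like cells, a change of -1.01 ± 0.22 (adjusted p = 0.0193, edgeR). Its call was lost with DESeq2 (adjusted p = 0.0880) and without the 4 mM Epi-like arm (adjusted p = 0.217, edgeR). SRSF3 did not pass (0.47 ± 0.14, adjusted p = 0.0590, edgeR). The 18 core factors lay between -0.18 (HNRNPA2B1) and 0.47 (SRSF3). The stages also differ in culture medium and in single-cavity selection, which cannot be told apart from time.

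Immediate early genes summed to 166 and 204 CPM in the aggregate arms and 390 and 418 CPM in the Epi-like arms of run 1. Their part in the SRSF6 difference was not tested.

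Other genes of splicing, 115 in all and none of them among the 73, were taken from a fixed list of U1, U5, PRP19 complex, LSM, minor spliceosome, SMN, SR kinase and regulator genes. In Epi-like cells 17 of 115 were higher and 2 lower by dose, against 5.2% and 3.49% of all genes. SFPQ, a paraspeckle protein, was at 283 and 395 CPM in run 1 and at 313 and 388 CPM in run 2, a log2 change of 0.39 (adjusted p = 7.36e-05, edgeR). RBM25, a U1-linked regulator, was at 176 and 242 CPM in run 1 and at 211 and 251 CPM in run 2, a change of 0.35. Both were higher at 4 mM in each run. MATR3 had the largest change (0.64), but its symbol stands on 2 gene entries and the one tested lies at 1.10 to 2.35 CPM in the Epi-like arms. The other entry was at 11.8 and 13.9 CPM in run 1 and at 12.6 and 13.1 CPM in run 2. The genes that fell were GEMIN7 (-0.32) and GEMIN2 (-0.24), parts of the SMN complex that loads Sm rings onto RNA.

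In TE-like cells by dose 1 of 113 such genes tested was higher and 0 lower, against 0.648% and 0.791% of all genes. MBNL2, a muscleblind regulator of developmental exons, was at 8.76 and 31.0 CPM in run 1 and at 7.71 and 20.7 CPM in run 2, a log2 change of 1.49 ± 0.33 (adjusted p = 0.0139, edgeR). Its 0 mM level in run 1 comes from the arm of 18 cells, where 3 counts make 6.57 CPM, and so rests on very few counts. Both 4 mM arms lay above both 0 mM arms, as did those of the 12 summed trophectoderm markers given above, whose part in this call was not tested. The 4 trophectoderm genes of the class rule were lower at 4 mM in both runs. MBNL2 also had the largest difference between the classes in this list, at 0.211 to 0.649 CPM in Epi-like cells, with a change of 5.71 between TE-like and Epi-like cells, followed by MBNL3 (3.63) and RBM47 (1.42). Between the classes 38 of 115 were higher and 11 lower with TMM, against 23.1% and 25.9% of all genes, and 19 and 29 with total counts, against 14.1% and 38.3%. The lowest values were those of PTBP2 (-0.99), ESRP1 (-0.71) and RBM5 (-0.67), and all 3 were lower with both scalings. Against aggregates, MBNL3 (1.36), TRA2A (0.51) and PTBP1 (0.46) were higher in Epi-like cells and 0 genes were lower, against 4.81% and 2.69% of all genes. In the stage-by-dose test 18 of 115 were higher and 1 lower (RBM47, -0.45), against 5.74% and 4.95%, led by GEMIN6 (0.64), SYNCRIP (0.53) and TAF15 (0.53). None of the list passed the interaction of class and dose (0 of 115), which 0.38% of all genes passed as higher and 0.395% as lower.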

How the data were processed

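The authors made the deposited UMI counts per gene and barcode by aligning reads to GRCh38 with Cell Ranger 6.1.2 (bcl2fastq 2.20.0.422 for the conversion), and used Seurat 4.3.0 afterwards. Hashtag counts stand in the same matrices, and the deposited hashtag tables give the culture and dose of each tag. Barcodes were assigned with HTODemux of Seurat 5.3.0 (quantile 0.99), which left 6012 and 10400 singlets. Hashtag doublets (512 and 1142) and negative barcodes were left out, and no other doublet caller was run. Cells had at most 15% mitochondrial UMIs and at least 7000 (run 1) or 5000 UMIs (run 2), which kept 3773 and 8874 cells.

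The UMI counts of all cells of a class in an arm were added up, and these sums went into edgeR 4.0.16 (R 4.3.3; quasi-likelihood test, TMM, filterByExpr, Benjamini-Hochberg over all genes tested), with the run (dose) or the arm (class) in the model. The dose fits have 1 residual degree of freedom and borrow their spread across genes. The p-values of the dose and class fits measure the spread between these cultures. The fit of Epi-like cells against aggregates also has 1 residual degree of freedom. Its spread is that of the stage difference between the doses, and not that between replicate cultures. Within-run log2 ratios use a pseudocount of 0.5 CPM. Poisson intervals are exact at 95% and hold counting error only. A stage-by-dose term was added after the data had been seen. DESeq2 1.42.0, other scalings, filters, cell limits and left-out arms were tried as alternatives. The tests were checked on simulated counts drawn with 1 spread for all genes. The changed genes were picked at random from all genes that passed filterByExpr and were not matched to the members' levels. The shares recovered are therefore those of such genes and not of the members. Of changes of 0.5 on the log2 scale, 7.45% were recovered by dose in TE-like cells and 63% in Epi-like cells. Between the classes 33.7% were recovered, and 19.4% for Epi-like cells against aggregates. For the interaction of class and dose it was 3.12%, and for the stage-by-dose term 16.5%. Gene positions and sequences come from RefSeq GRCh38.p14. Figures were drawn with matplotlib 3.10.9.

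Members, lists and core factors (SRSF1, SRSF2, SRSF3, SRSF7, HNRNPA1, HNRNPA2B1, HNRNPC, HNRNPK, HNRNPU, SF3B1, SF3A1, U2AF1, U2AF2, SNRPB, SNRPD1, SNRPA1, PRPF8, PRPF19) were chosen with earlier results of these data known. Named with values were the core factors, called members by size of change (arm values for the first 4 per direction), in aggregates up to 5 per direction, and the first 3 called per direction of the other splicing genes. Comparison columns of the authors were not used.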

Additional observations from a re-analysis of the deposited data

Results flagged for a closer look

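The summed splicing genes moved one way in aggregates and the other way in blastoids. The log2 ratio of 4 over 0 mM was -0.19 in aggregates, 0.088 and 0.048 in Epi-like cells of run 1 and run 2, and 0.17 and 0.078 in TE-like cells of run 1 and run 2. SRSF3 (-0.16), HNRNPU (-0.35) and HNRNPH1 (-0.26) had ratios below 0 in aggregates and rose in Epi-like cells in both runs. For the sum of all members every pair of arms of a stage moved the same way. The SF3 sum alone was lower at 4 mM in Epi-like cells of both runs (log2 ratios of -0.12 and -0.067). The difference of the summed ratios between the stages was not tested. For the single genes a stage-by-dose term, added after the data had been seen, gave 0.45 for SRSF3 (adjusted p = 0.00393, edgeR), 0.56 for HNRNPU (adjusted p = 0.000212, edgeR) and 0.47 for HNRNPH1 (adjusted p = 0.00205, edgeR), with Epi-like cells the higher. None of these passed with the run left out of the model, and HNRNPH1 did not pass with DESeq2.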

How the results depend on the processing

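The counts of members called kept within 1.5 times of those reported under the settings not named here. In Epi-like cells by dose, 6 were higher and 4 lower; total counts gave 12 higher, DESeq2 gave 3 higher and 0 lower, the fit with no replicate block (run left out) gave 0 and 0, and leaving out 1 arm, where the run term could not be fitted and a lone arm is assumed to vary like the other dose, gave 0 to 0 higher and 0 to 1 lower. HNRNPLL alone was lost with total counts, with no low-count filter, at 10000 UMIs or more and without cells above 2 times the median UMI. Between TE-like and Epi-like cells, 35 were higher and 4 lower; total counts gave 13 and 13, no low-count filter 20 and 7, and leaving out a run gave 12 to 34 higher and 2 to 3 lower. Of Epi-like cells against aggregates, with 1 higher and 1 lower, RLE and no low-count filter gave 2 higher each, DESeq2 gave 0 lower and leaving out 1 arm gave 1 to 3 higher and 0 to 1 lower. The summed share in aggregates had a log2 ratio of -0.14 without mitochondrial and ribosomal protein genes in the total, against -0.19. In all other cases of a change, the cause was not tested. Of the dose change in Epi-like cells against aggregates (added after the data had been seen), with 22 higher and 0 lower, DESeq2 gave 4 higher, no replicate block gave 0 higher, leaving out 1 Epi-like arm, with the run left out, gave 0 to 1 higher, and 1 was lower with RLE and with the class margin of 2 times (HNRNPLL) and 1 with total counts (SF3B6). Of the called members, up to 25 per comparison by size of change, 0 changed direction under these settings. Beyond them HNRNPD, HNRNPAB and SNRPD3, higher in TE-like cells with TMM, were at -0.041, -0.017 and -0.0071 with total counts. Runs taken alone allow no test by dose or for the interaction, and the members' median ratios were 0.099 and 0.029 in Epi-like cells and 0.16 and 0.053 in TE-like cells (run 1 and run 2). Over all genes at 20 CPM or more the medians were 0.040 and 0.0013 in Epi-like cells and 0.026 and 0.014 in TE-like cells. Replicate numbers pair no samples here beyond the run.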
